A study of Mus musculus with 28 samples.

Results

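Prelp, Slc14a1 and Mylk3 are 3 genes whose transcripts were detected in every untreated sample of mouse small-intestinal organoids and were scarcer after treatment with several BMP ligands. They are 3 of the 29413 genes in the BMP table and of the 55416 genes in the TGFb table, and all 3 passed the filter on low values in both tables. They were chosen from the largest falls under BMP2, BMP4, BMP5 or BMP7, so their values with those ligands are given as a description with no test. The values with Tgfb come from other samples with their own controls, and BMP3 was not used in the choice but shares the 4 controls. The label given to the genes speaks of the crypt side of the epithelium. The tables hold no position along the crypt and villus, so the genes are set beside crypt stem cell genes and their place in the tissue is not stated.

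All organoids were wild-type (C57BL/6) epithelial cultures, grown from crypts seeded in the medium the labels call ENR, with no BMP or Tgfb in it. In the BMP table, 4 samples had no ligand, 4 had recombinant BMP2, and BMP3, BMP4, BMP5 and BMP7 had 3 samples each. In the TGFb table, 3 samples had no ligand and 3 had recombinant Tgfb. Each ligand was given at 500 ng/ml for 24 h, so this is 1 dose and 1 time. Another table held 2 samples of duodenal mesenchymal cells from PdgfraH2BeGFP mice, 1 freshly isolated and 1 immortalised with HPV16-E6 and sorted. The labels do not say which organoid samples came from separate mice or cultures, so the spread between them may be technical.

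BMPs and Tgfb are secreted ligands that bind paired serine/threonine kinase receptors. BMP receptors activate Smad1, Smad5 and Smad8, and Tgfb receptors activate Smad2 and Smad3. In the intestine BMP signalling is low in the crypt, where Wnt keeps stem cells dividing, and high along the villus, where enterocytes mature. Prelp encodes a small leucine-rich repeat protein of the extracellular matrix that anchors basement membranes to connective tissue. Slc14a1 encodes the urea transporter UT-B, a channel-like protein best known from red blood cells and kidney vessels. Mylk3 encodes the cardiac myosin light chain kinase, which phosphorylates the regulatory light chain of myosin in heart muscle.

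Promoter windows are shown because the genes were lower, to different degrees, under several Smad-activating ligands. RefSeq windows on GRCm38.p6 were available for Prelp and Mylk3, and each shown stretch is the 250 bases before a transcription start, on the minus strand. Capitals mark CAGCC and CAGAC on either strand, so a match on the other strand reads GGCTG or GTCTG, and no 2 marked matches overlap.
Prelp, chr1:133921402-133921651: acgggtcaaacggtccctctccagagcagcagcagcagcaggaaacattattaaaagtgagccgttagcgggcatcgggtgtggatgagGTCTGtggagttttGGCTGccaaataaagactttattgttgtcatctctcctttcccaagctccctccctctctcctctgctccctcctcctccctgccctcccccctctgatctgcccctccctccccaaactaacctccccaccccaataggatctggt
Mylk3, start 1, chr8:85381042-85381291: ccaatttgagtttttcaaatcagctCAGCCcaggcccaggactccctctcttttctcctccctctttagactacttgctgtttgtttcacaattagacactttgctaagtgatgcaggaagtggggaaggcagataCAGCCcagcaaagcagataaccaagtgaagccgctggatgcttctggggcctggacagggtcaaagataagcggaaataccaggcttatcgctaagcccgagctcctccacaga
Mylk3, start 2, chr8:85365325-85365574: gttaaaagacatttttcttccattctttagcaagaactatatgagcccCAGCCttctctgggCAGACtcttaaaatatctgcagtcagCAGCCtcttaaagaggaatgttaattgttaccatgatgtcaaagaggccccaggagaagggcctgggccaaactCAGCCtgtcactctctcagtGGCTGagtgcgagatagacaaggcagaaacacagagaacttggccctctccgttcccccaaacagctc

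CAGAC, the core of the Smad-binding element, was present 1 time in the Prelp window and 1 time in the second Mylk3 window, and 42.2% of all 32851 RefSeq windows of this length hold it. CAGCC was present 1 time for Prelp, and 2 and 4 times in the Mylk3 windows, against 61.3% of all windows with at least 1 match. The E-box CANNTG had 1 match, in the first Mylk3 window, and 66.2% of all windows hold it. GGCGCC, the Smad palindrome GTCTAGAC and the TCF/LEF motif CTTTGAT had 0 matches in the 3 windows, and 9.59%, 0.167% and 3.21% of all windows hold them. These matches describe letters and no binding was measured here.

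In the BMP table the values are normalized counts, in which 1 read was worth 0.826 to 1.28, at 21358620 to 24784834 recovered reads per sample. Background for the counts of genes is the share of the 14746 genes tested that passed an adjusted p of 0.05 in limma. BMP2 had 36.8% of genes higher and 38.4% lower, BMP4 had 33.7% and 31.4%, BMP5 had 16.5% and 9.87%, and BMP7 had 19.2% and 13.2%. With the replicate number as a block, 3145 rather than 2429 genes were higher and 2593 rather than 1455 lower with BMP5, and 3541 rather than 2833 higher and 3148 rather than 1940 lower with BMP7. With BMP3 0% were higher and 0% lower by limma, with 110 genes at an unadjusted p under 0.05, 0 calls by edgeR and 1 by DESeq2. After rescaling every sample to the same total, the median gene was at -0.49 (log2) with BMP2 and -0.35 with BMP4, against -0.03 and 0.04 before. The share of higher calls then went from 48.9% to 31.5% with BMP2 and from 51.7% to 30.9% with BMP4. With quantile normalization it went from 62.5% to 49.8% with BMP5 and from 59.4% to 48.0% with BMP7. The BMP target Id1 served as a check of the labels. It averaged 133 ± 27.4 normalized counts in the 4 controls and 129 ± 6.24 in the 3 BMP3 samples (SD), against means of 843 to 2810 for the other 4 BMPs.

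Prelp had almost no reads left with BMP2 and BMP4, whereas BMP5 and BMP7 left a sizeable share of it. Its 4 controls were at 888, 916, 1130 and 1290 normalized counts, and its 3 BMP3 samples at 808, 943 and 1160. The 3 BMP5 samples were at 486, 609 and 913, and the 3 BMP7 samples at 321, 451 and 475. BMP5 overlapped the controls through its highest sample, and BMP7 lay below both groups. With BMP4 the samples were at 1.14, 2.37 and 8.38, and with BMP2 at 2.27, 0, 0 and 0. These are 10 reads over 3 BMP4 libraries and 2 reads over 4 BMP2 libraries, against 4926 reads over the 4 control libraries.

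The Prelp mean was 1056 ± 190 in controls (SD, n = 4). BMP3 samples averaged 970 ± 178, BMP5 samples 669 ± 220, BMP7 samples 416 ± 82.9 and BMP4 samples 3.96 ± 3.87 (SD, n = 3 each). As a percent of the control mean, BMP5 left 63.4%, BMP7 39.4% and BMP4 0.375% (0.166% without BMP4 replicate VI). Control over BMP4 was a ratio of 269.6 in reads per library size (95% counting interval 146 to 563). Control over BMP2, from 2 reads, was a ratio of 1742 (95% counting interval 482 to 14387). Counting intervals cover counting error only, because reads copied by PCR are not independent molecules. Between neighbours in the order control, BMP3, BMP5, BMP7, BMP4 and BMP2, the samples did not overlap between BMP5 and BMP7 or between BMP7 and BMP4. The other 3 neighbouring pairs overlapped.

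Slc14a1 had at most 3 reads in any library with BMP2 or BMP4, and BMP5 and BMP7 left a smaller share of it than of Prelp. Its controls were at 95.8, 132, 181 and 190 normalized counts, and its BMP3 samples at 146, 189 and 223. The BMP5 samples were at 5.47, 6.48 and 44.0, and the BMP7 samples at 1.92, 4.54 and 8.20. None of these 6 samples reached the lowest control, and the BMP5 sample at 44.0 stood above the other 5. With BMP4 all 3 samples were at 0, and with BMP2 they were at 3.41, 0, 0 and 0.

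The Slc14a1 mean was 150 ± 44.1 in controls (SD, n = 4). BMP3 samples averaged 186 ± 38.6, BMP5 samples 18.6 ± 22.0 and BMP7 samples 4.89 ± 3.15 (SD, n = 3 each). BMP5 left 12.5% of the control mean, and 3.99% without BMP5 replicate II, the sample at 44.0. BMP7 left 3.26%, and 2.16% without BMP7 replicate III. No read was found with BMP4, and against a floor of 3 reads over the group Slc14a1 was 126-fold lower than in controls. The lower end of the 95% counting interval for control over BMP4 was a ratio of 103. The 3 reads with BMP2 gave a control-over-BMP2 ratio of 163 (95% counting interval 55.7 to 794). In the order BMP3, control, BMP5, BMP7, BMP2 and BMP4, only control and BMP5 did not overlap. From BMP5 down to BMP4, each group overlapped the next one in that order.

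Mylk3 was lower with all 4 of these ligands, and BMP4 left more of it than of either other gene. The controls were at 185, 207, 238 and 247 normalized counts, and the BMP3 samples at 198, 202 and 246. The BMP4 samples were at 20.3, 24.9 and 33.1, the BMP5 samples at 18.2, 24.1 and 47.5, and the BMP7 samples at 11.8, 17.3 and 19.1. With BMP2 the samples were at 0, 2.27, 2.53 and 3.84, or 7 reads in all. The BMP4 and BMP5 samples overlapped each other, and all 13 samples with BMP2, BMP4, BMP5 or BMP7 lay below every control.

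The Mylk3 mean was 219 ± 28.5 in controls (SD, n = 4). BMP3 samples averaged 215 ± 26.6, BMP5 samples 29.9 ± 15.5, BMP4 samples 26.1 ± 6.48 and BMP7 samples 16.1 ± 3.80 (SD, n = 3 each). BMP5 left 13.7% of the control mean, BMP4 11.9% and BMP7 7.33%. BMP2 left 0.985%, a control-over-BMP2 ratio of 103 (95% counting interval 50.0 to 258). In the order control, BMP3, BMP5, BMP4, BMP7 and BMP2, the samples overlapped between control and BMP3 and between BMP5 and BMP4, and not between the other neighbours.

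**Figure D1:**
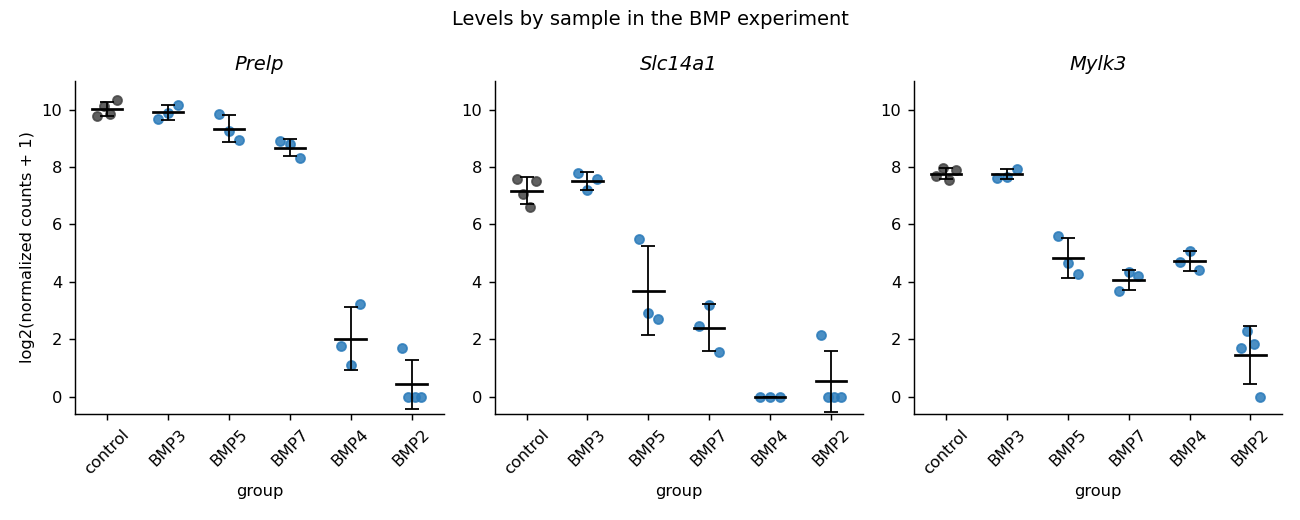
Levels of Prelp, Slc14a1 and Mylk3 in each of the 20 BMP-table samples, as log2(normalized counts + 1); points are samples, thick lines are group means and bars are SD. BMP3 sits with the controls for all 3 genes, Prelp stays near the controls with BMP5, and Slc14a1 is at 0 in the 3 BMP4 samples.

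The share left by each ligand differed from gene to gene. BMP2 left under 1% of each gene. BMP4 left 0.375% of Prelp and 0% of Slc14a1 but 11.9% of Mylk3. BMP5 left 63.4% of Prelp but 12.5% of Slc14a1 and 13.7% of Mylk3, and without BMP5 replicate II it left 51.8%, 3.99% and 9.65%. On the log2(value + 1) scale the differences from control with BMP5 were -0.69 for Prelp (SE 0.435), -3.49 for Slc14a1 (SE 0.620) and -2.94 for Mylk3 (SE 0.412). With BMP4 they were -8.00 for Prelp (SE 0.435), -7.18 for Slc14a1 (SE 0.620) and -3.04 for Mylk3 (SE 0.412). The difference understates the change of low genes, and it depends on the added count of 1 where a group has almost no reads. In bulk RNA, fewer cells that express a gene and less RNA per cell cannot be told apart.

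Among the 3 BMP5 samples, replicate II was the highest for each of the 3 genes, at 913 for Prelp, 44.0 for Slc14a1 and 47.5 for Mylk3. It was also the highest of the 3 for Lgr5 (4010, against 2640 and 2040) and Olfm4 (64800, against 20400 and 32900), both crypt stem cell transcripts. Its Id1 value was the lowest of the 3, at 667 against 792 and 1070. Without it the log2 differences with BMP5 were -0.94 for Prelp, -4.39 for Slc14a1 and -3.32 for Mylk3. Its part in the spread of the BMP5 group was not tested further.

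With BMP3 the samples overlapped the controls for each of the 3 genes. The Prelp sample at 808 lay below every control and the Slc14a1 sample at 223 above every control. By limma the log2 difference from control was -0.12 for Prelp (SE 0.435, 95% interval -1.03 to 0.79), 0.34 for Slc14a1 (SE 0.620, 95% interval -0.96 to 1.64) and -0.02 for Mylk3 (SE 0.412, 95% interval -0.89 to 0.84). The adjusted p was 1 for each, over 14746 genes. The interval for Slc14a1 reaches 1.64, so these samples do not show that BMP3 has no action on it. BMP3 also changed 0 of the 5 BMP target genes tested, whereas BMP2, BMP4 and BMP7 raised 5 of 5 and BMP5 raised 4 of 5 (5 of 5 with the replicate block).

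All 3 genes were lower with Tgfb, in samples with their own controls. The genes were chosen with earlier results of these data known, so it is not established that the Tgfb values had no part in the choice. BMP target genes rose in the Tgfb samples, with 4 of the 5 tested higher past the threshold. Id1 went from 8.51 ± 1.07 to 63.6 ± 14.9 TPM (SD, n = 3 each), and Id2, at -0.04 on the log2 scale, did not pass (adjusted p = 0.831, limma). In the TGFb table the values are TPM, which are per length and can be compared between genes. The controls stood at 17.5, 21.6 and 22.0 TPM for Prelp, at 9.88, 10.7 and 10.8 TPM for Slc14a1, and at 3.49, 4.17 and 4.61 TPM for Mylk3. With Tgfb, Prelp was at 1.53, 3.07 and 4.02 TPM, Slc14a1 at 0.0293, 0.0407 and 0.0601 TPM, and Mylk3 at 0.0719, 0.0737 and 0.149 TPM. In each gene all 3 treated samples lay below all 3 controls, in a comparison where 29.3% of the 12959 genes tested were lower and 27.4% higher past the threshold.

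Slc14a1 fell from 10.4 ± 0.487 to 0.0434 ± 0.0156 TPM (SD, n = 3 each), which left 0.415% of the control mean. Its log2 difference by limma was -3.45 (SE 0.113, adjusted p = 5.48e-06). Mylk3 fell from 4.09 ± 0.564 to 0.0984 ± 0.0443 TPM (SD, n = 3 each), leaving 2.40%, with a log2 difference of -2.21 (SE 0.165, adjusted p = 8.92e-05). Prelp fell from 20.4 ± 2.46 to 2.87 ± 1.26 TPM (SD, n = 3 each), leaving 14.1%, with a log2 difference of -2.51 (SE 0.256, adjusted p = 0.000322). These differences are on the log2(TPM + 1) scale, on which a gene with a low control level cannot fall as far as one with a high level, so the percents rank the 3 genes differently from the log2 values. Among the genes tested, 122 had a larger log2 fall than Prelp. Slc14a1 and Mylk3 passed the filter of a mean of 1 TPM through their control samples alone. With no filter their adjusted p was 4.85e-05 and 0.000201 by limma, and that of Prelp 0.00128. The depth of these samples is unknown, because TPM keeps none.

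**Figure D2:**
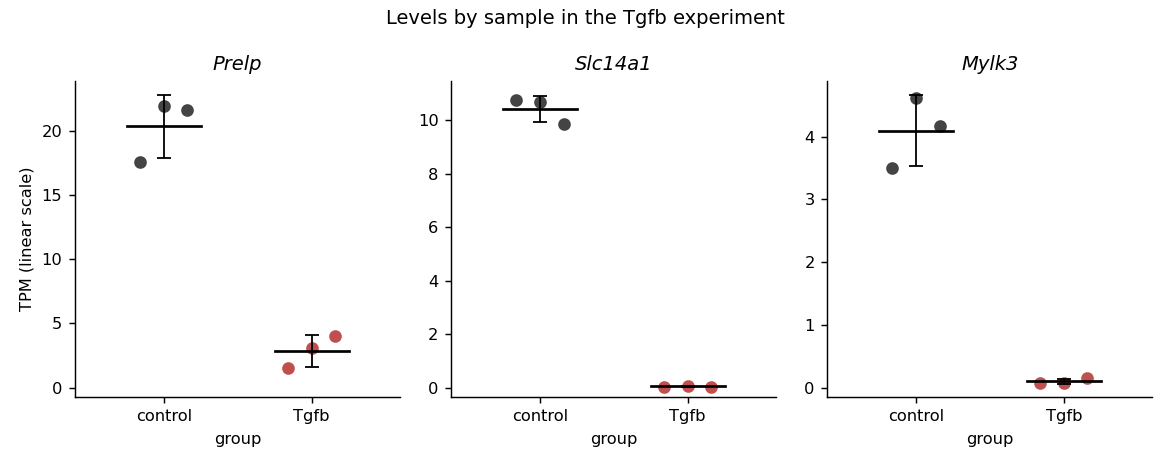
Levels of Prelp, Slc14a1 and Mylk3 in TPM on linear axes in the 3 control and 3 Tgfb samples; points are samples, thick lines are means and bars are SD. Each panel has its own scale, and every Tgfb sample lies below every control, with Prelp between 1.53 and 4.02 TPM.

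Of the 20 crypt stem cell and Wnt target genes listed, most were lower with BMP2 (15) and BMP4 (18), and with BMP5 as many were higher (5) as lower (5). Lgr5, the stem cell receptor for R-spondins, averaged 4340 ± 971 normalized counts in the controls (SD, n = 4), and BMP5 left 66.7%, BMP7 34.4%, BMP4 0.620% and BMP2 0.219% of that mean. For Prelp the same ligands left 63.4%, 39.4%, 0.375% and 0.0537%. The Lgr5 difference with BMP5 did not pass the test (adjusted p = 0.294 by limma). Smoc2, a secreted matricellular protein of stem cells, was left at 36.5% with BMP5 and 16.6% with BMP7. Olfm4, a secreted glycoprotein of stem cells, was left at 42.5% and 21.8%, and with BMP5 it passed the test only with the replicate block (adjusted p = 0.0632 without it and 0.0266 with it, limma). Slc14a1 and Mylk3 were both below these 3 stem cell genes with BMP5 and BMP7. Axin2, a direct Wnt target, was left at 63.5% with BMP4, where Prelp was at 0.375%. Ascl2, a stem cell transcription factor, was at 114% of control with BMP5 and 123% with BMP7, and its difference did not pass the test there (adjusted p = 0.669 and 0.415 by limma).

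In the opposite direction, 3 of the 20 listed genes were higher with BMP2 and 0 with BMP4. With BMP7 9 were lower and 5 higher. With the replicate block 7 were lower and 6 higher with BMP5, and 11 and 6 with BMP7. With Tgfb 12 were lower and 7 higher. Over all genes tested, 38.4% were lower and 36.8% higher with BMP2, and 31.4% and 33.7% with BMP4. The shares lower and higher were 9.87% and 16.5% with BMP5, 13.2% and 19.2% with BMP7, and 29.3% and 27.4% with Tgfb. The list had a median log2 difference of -1.87 (BMP2), -3.29 (BMP4), -0.28 (BMP5), -0.46 (BMP7) and -0.98 (Tgfb). The same median over all genes tested lay between -0.05 and 0.04. With Tgfb Lgr5 fell to 29.6%, Olfm4 to 4.01%, Smoc2 to 9.63%, Axin2 to 39.1% and Ascl2 to 67.7% of control, all past the threshold. Slc14a1 and Mylk3, at 0.415% and 2.40%, were below each of these 5.

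**Figure D3:**
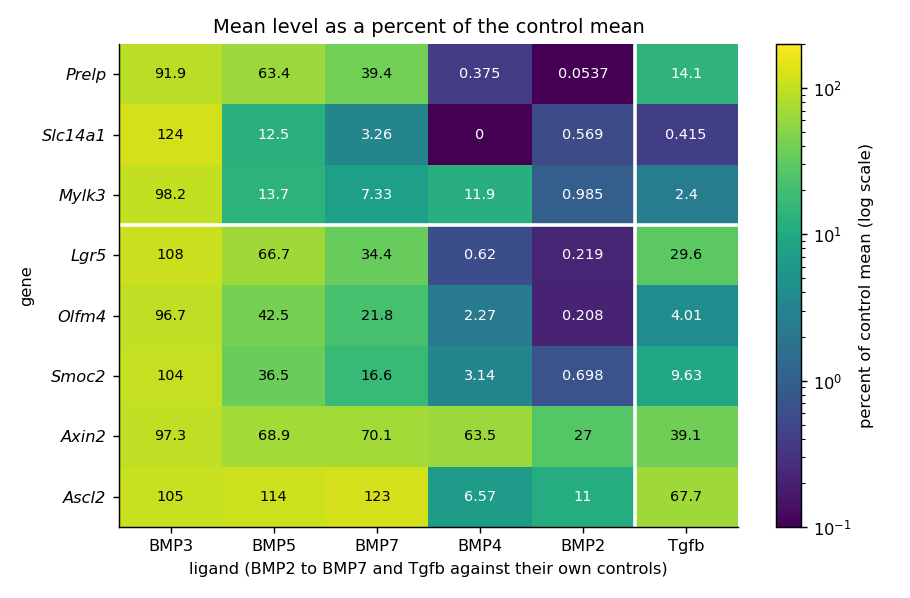
Mean level of Prelp, Slc14a1, Mylk3 and 5 crypt stem cell genes with each ligand, as a percent of the mean of its own controls, with colour on a log scale. Slc14a1 and Mylk3 are at 12.5% and 13.7% with BMP5, where Prelp is at 63.4% and Lgr5 at 66.7%.

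The matrix protein family of Prelp gave almost no other signal in the organoids. Of the other 14 small leucine-rich proteoglycan genes listed, 7 were in the BMP table and 1, Podn, passed the filter there. Podn averaged 7.82 ± 3.56 normalized counts in the 4 controls and 57.1 ± 26.3 in the 3 BMP4 samples (SD), higher by 2.73 on the log2 scale, where Prelp had 10 reads in all. Podn passed the filter only through its BMP4 samples, since its mean in each other group was under 10. Its values are therefore a description with no test. With BMP2 Podn fell by 1.58, and by 0.89 with quantile normalization. In the TGFb table these 14 genes together summed to 0.279 to 0.662 TPM in controls, while Prelp alone stood at 20.4 TPM. Decorin (Dcn), lumican (Lum) and Ogn were listed at 0 TPM in all 6 samples.

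In mesenchymal cells the family was abundant. Fresh cells held 3201 TPM of Dcn, 3016 TPM of biglycan (Bgn) and 28.4 TPM of Prelp, and the immortalised cells held 725, 2757 and 27.0 TPM. There is 1 sample of each kind, so nothing was tested, and the tables were scaled separately. Slc14a1 was at 0.0297 and 0.0302 TPM in these cells and Mylk3 at 0.486 and 0.135 TPM. The 12 mesenchymal marker genes listed summed to 23540 and 13239 TPM in the mesenchymal samples and to 5.22 to 8.37 TPM in the 3 organoid controls of the TGFb table. Of the defining collagens, Col1a2 and Col3a1 were listed at 0 TPM in all 6 organoid samples. Col1a1 was at 0 to 0.00851 TPM in the 3 controls and at 0.434 to 0.733 TPM in the 3 Tgfb samples, where the list summed to 7.77 to 9.98 TPM. The 8 epithelial genes listed summed to 3767 to 4118 TPM in those controls, and to 33.8 and 6.73 TPM in the mesenchymal samples. In the BMP table the same list summed to 142 to 236 normalized counts in controls, of which Vim, an intermediate filament gene, made up 149 ± 28.5 (SD, n = 4). It summed to 80.6 to 126 with BMP2, 37.7 to 51.4 with BMP4, 157 to 224 with BMP5 and 103 to 174.5 with BMP7. Col1a1 averaged 15.9 ± 4.26 normalized counts with BMP2 (SD, n = 4) and ran from 0.826 to 19.5 in controls, where replicate IV was the highest. The part of these transcripts in the Prelp values was not tested.

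Slc14a1 moves urea, and the genes that make urea did not share its grading by ligand. In control organoids Cps1 (carbamoyl phosphate synthetase, the first step of the urea cycle) averaged 61800 ± 4310 normalized counts (SD, n = 4). Otc, the next enzyme, was at 1940 ± 208, Slc25a15, the mitochondrial ornithine carrier, at 4168 ± 578, and Arg2, the mitochondrial arginase, at 1487 ± 637. With BMP2 all 4 fell on the log2 scale, with adjusted p up to 7.57e-09 by limma. Slc25a15 fell by 3.33 and Cps1 fell by 6.45. Of the same list, Agmat (-4.63) and Nags (-2.44) also fell with BMP2. Other urea-making genes of the list went the opposite way. With BMP2 Arg1 rose by 4.68, Ass1 by 3.02 and Asl by 0.43 (adjusted p up to 0.000586, limma). Arg1 and Ass1 also rose with BMP5, BMP7 and Tgfb, and fell with BMP4 (-0.96 and -0.79).

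With BMP4, where Slc14a1 had 0 reads, Arg2 rose by 2.62 (SE 0.439, adjusted p = 3.79e-05) to 8523 ± 643 and Slc25a15 rose by 1.17 (adjusted p = 6.59e-06) to 9343 ± 744 (SD, n = 3). Cps1 fell by 1.58 (adjusted p = 0.00524), and Otc, at -0.23, did not pass (adjusted p = 0.657). With BMP5 and BMP7 Otc, Arg2 and Slc25a15 fell. Cps1 did not pass the test there, at -0.48 with BMP5 (adjusted p = 0.485) and -0.63 with BMP7 (adjusted p = 0.303), nor with the replicate block (-0.70, adjusted p = 0.21, and -0.85, adjusted p = 0.112, limma). Its 3 BMP7 samples, at 34400, 41200 and 44300 normalized counts, all lay below the lowest control, at 55600. With Tgfb Cps1, Otc, Slc25a15 and Arg2 fell, Arg2 from 94.2 ± 4.07 to 3.55 ± 0.569 TPM (SD, n = 3 each). Over the list, 6 of 12 genes tested were lower and 4 higher with BMP2, and 3 were lower and 6 higher with BMP4 (1 and 6 with quantile normalization). With BMP5 and with BMP7 5 were lower and 3 higher, and with Tgfb 6 of 10 were lower and 3 higher. Over all genes tested, 38.4% were lower and 36.8% higher with BMP2, and 31.4% and 33.7% with BMP4. With BMP5 the shares lower and higher were 9.87% and 16.5%, with BMP7 13.2% and 19.2%, and with Tgfb 29.3% and 27.4%. The second urea transporter gene, Slc14a2, was at 0 to 0.897 normalized counts in all groups, which is at most 1 read.

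**Figure D4:**
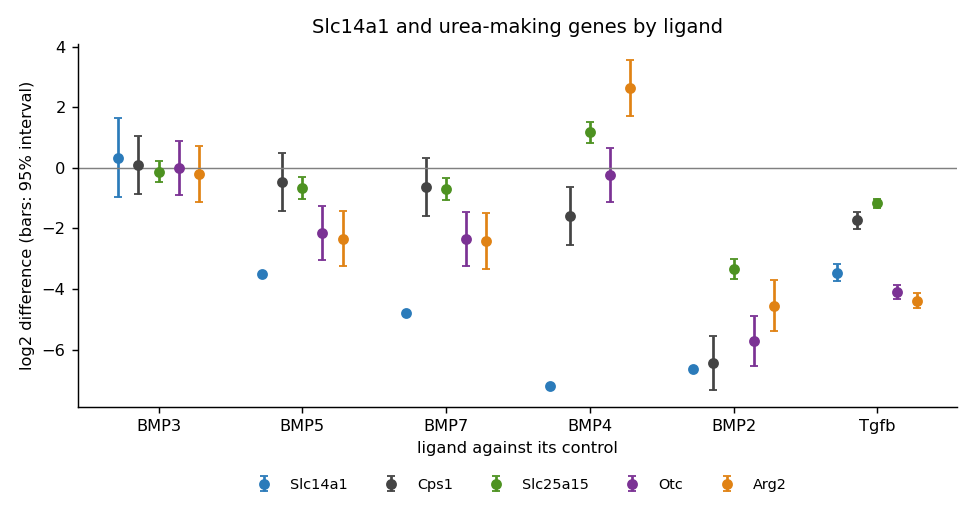
Log2 difference from control (on log2(value + 1), with 95% intervals) of Slc14a1 and 4 genes of urea making for each ligand, with no interval for Slc14a1 where the ligand chose it; values for Tgfb are from the TGFb table in TPM. With BMP4 Slc14a1 is lowest while Arg2 and Slc25a15 are above 0.

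Red blood cells are rich in Slc14a1, so their genes were looked at. Hbb-bs averaged 0.206 ± 0.413 normalized counts in the 4 controls (SD), and Alas2, an erythroid enzyme of heme synthesis, was at 0 in all 4. The 12 erythroid, endothelial and immune genes listed summed to 614 to 815 in controls, of which the endothelial gene Pecam1 made up 671 ± 107.

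Of the other genes of the Mylk family, Mylk moved the opposite way to Mylk3 and Mylk4 did not pass the test with any BMP in the deposited scaling. Mylk, the smooth muscle and non-muscle myosin light chain kinase, averaged 726 ± 114 normalized counts in the 4 controls and 705 ± 67.1 in the 3 BMP3 samples (SD). It rose to 1530 ± 416 with BMP2 (SD, n = 4), and in the groups of 3 to 5180 ± 231 (BMP4), 1717 ± 470 (BMP5) and 1890 ± 262 (BMP7). All 13 samples with these ligands lay above every control. The log2 differences were 1.05 with BMP2 (adjusted p = 2.12e-05), 2.85 with BMP4 (adjusted p = 5.54e-10), 1.22 with BMP5 (adjusted p = 9.08e-05) and 1.38 with BMP7 (adjusted p = 1.71e-05) by limma.

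With Tgfb Mylk rose from 19.4 ± 3.77 to 66.1 ± 8.71 TPM (SD, n = 3 each), by 1.72 on the log2 scale (adjusted p = 0.000258), while Mylk3 fell. Its direction and call held under each scaling tried, with the smallest value 0.592 for BMP2 after rescaling to the same total (adjusted p = 0.00238). Mylk4 averaged 18.8 ± 3.67 normalized counts in the 4 controls (SD) and came nearest to the threshold with BMP7 (-1.02, adjusted p = 0.0597, and -1.13, adjusted p = 0.0267, with quantile normalization). Mylk2 was listed at 0 TPM in all 6 samples of the TGFb table.

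**Figure D5:**
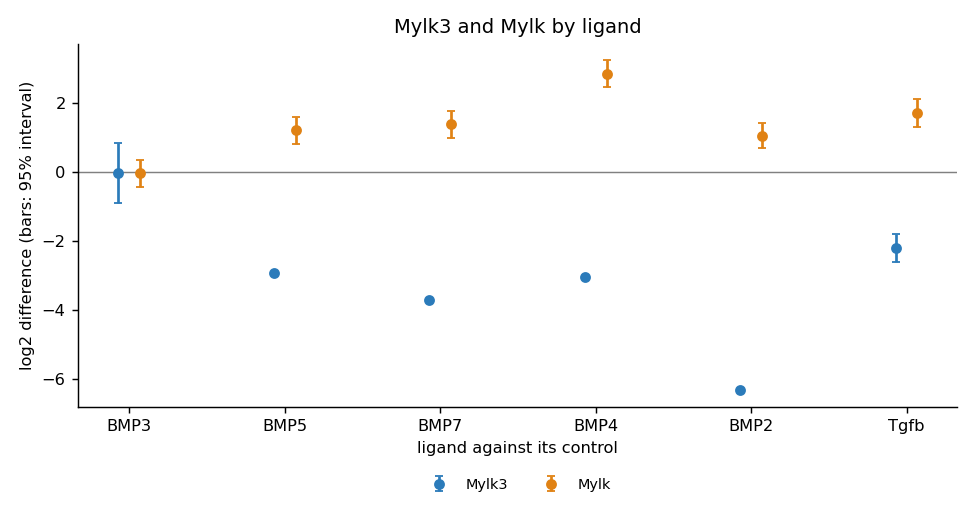
Log2 difference from control (on log2(value + 1), with 95% intervals) of Mylk3 and Mylk for each ligand, with no interval for Mylk3 where the ligand chose it; values for Tgfb are from the TGFb table in TPM. Mylk is above 0 with 5 of the 6 ligands, where Mylk3 is below 0, and both lie near 0 with BMP3.

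Of the other myosin light chain phosphorylation genes listed, 17 were tested in the BMP table. With BMP2 11 were higher and 2 lower (10 and 5 after rescaling to the same total), and with BMP4 11 and 2 (8 and 3, or 7 and 4 with quantile normalization). With BMP5 and with BMP7 8 were higher and 0 lower (2 lower with BMP5 and the replicate block), against 7 and 1, and 8 and 2, after rescaling to the same total. With Tgfb 8 of 16 were higher and 1 lower. Over all genes tested, 36.8% were higher and 38.4% lower with BMP2, and 33.7% and 31.4% with BMP4. The shares higher and lower were 16.5% and 9.87% with BMP5, 19.2% and 13.2% with BMP7, and 27.4% and 29.3% with Tgfb. Calmodulin transcripts, which activate these kinases, did not all move: Calm2 rose with BMP2 by 1.51 (adjusted p = 3.94e-12), whereas Calm3, at 0.05, did not pass (adjusted p = 0.699, limma). Myl2, the heart ventricle light chain, was listed at 0 TPM in the TGFb table. Of the 10 cardiac and skeletal muscle genes listed, 2 passed the filter of the BMP table. One was Tnnt2, cardiac troponin T, which rose from 8.66 ± 5.00 normalized counts in controls to 171 ± 56.6 with BMP2 (SD, n = 4 each), opposite to Mylk3.

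The 3 genes resembled each other only in part. Over the 20 BMP-table samples Pearson's r of log2(value + 1) was 0.838 between Prelp and Slc14a1, 0.776 between Prelp and Mylk3, and 0.860 between Slc14a1 and Mylk3. These values mostly carry the ligand groups that chose the genes. Taken as deviations from the group means, r was 0.604, 0.0954 and 0.412. The samples share ligand, replicate number and scaling, so no p is attached.

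Each gene had its own nearest genes among 11856 at a mean of at least 50. For Prelp they were Ppat (r = 0.994), an enzyme of purine synthesis, then Cdc6, a DNA replication licensing factor, Cmtm7, Car12, a carbonic anhydrase, and Stra6l (r from 0.990 to 0.994). For Slc14a1 they were Rgmb (r = 0.984), a BMP co-receptor known from stem cells, then Soat1, a cholesterol acyltransferase, Acadsb, a mitochondrial acyl-CoA dehydrogenase, Cbs, cystathionine beta-synthase, and Qsox2. For Mylk3 they were Pdss1 (r = 0.971), an enzyme of ubiquinone synthesis, then Mrm2, a mitochondrial ribosomal RNA methyltransferase, Kcnf1, a potassium channel subunit, 1700001L05Rik and A730020E08Rik. The likeness is one of shape, since Ppat with BMP2 was left at 6.66% of control and Prelp at 0.0537%.

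These 15 genes were picked in the BMP table, and the Tgfb samples had no part in that. With Tgfb 15 of 15 were lower past the threshold (adjusted p up to 0.0226, limma), where 29.3% of all genes tested were lower. All 15 were also lower with BMP2 and with BMP4, so that share is not a like background, and no conclusion is drawn from the count. Kcnf1 and A730020E08Rik, at means of 0.190 and 0.556 TPM with Tgfb, passed the filter through their controls alone. Their log2 differences ran from -3.12 to -0.44, with medians of -0.87 for the 5 near Prelp, -2.79 for the 5 near Slc14a1 and -2.34 for the 5 near Mylk3. Rgmb, for example, fell from 66.6 ± 0.802 to 7.59 ± 2.04 TPM (SD, n = 3 each). On that log2 scale the 3 genes themselves were at -2.51 (Prelp), -3.45 (Slc14a1) and -2.21 (Mylk3), so their order differed from that of the medians. As a percent of control, a different measure, Prelp kept the largest share with Tgfb, 14.1%.

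Overlapping genes may limit 2 of the 3 values, to an extent that was not tested. In GENCODE M21, Gm15851 lies on the opposite strand within the bounds of Prelp, and AA672651 on the opposite strand of Mylk3, and the strand of counting is not given in the sources used here. Gm15851 was at 0 to 1.92 normalized counts and AA672651 at 0 to 1.79 in any BMP-table sample. Reads of such a pair cannot be told apart without strand. No gene of that annotation overlaps Slc14a1.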

How the data were processed

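RNA was sequenced from 28 samples, deposited as 3 tables that were scaled separately, so each comparison stayed within a table. Per the submitters' processing notes, Trim Galore, Salmon, DESeq2 and the build GRCm39 were used; their roles and versions, and the annotation, are not given in the sources used here. In the BMP table the deposited values are a signal, namely counts scaled by a size factor for each sample, as read from the values. Of 180721 low values 100% were whole multiples of what 1 read is worth, within 0.1 read. In the other tables the authors deposited TPM, which keeps no depth.

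Groups follow the labels, and 0 columns were left unmapped. limma 3.58.1 in R 4.3.3 was fitted on log2(value + 1) with an intensity trend. It covered genes at a mean of at least 10 normalized counts (14746 of 29413) or 1 TPM (12959 of 55416), with 2-sided tests and Benjamini-Hochberg adjustment over all genes tested. The BMP fit held all 6 groups. edgeR 4.0.16 and DESeq2 1.42.0 on recovered reads, other pseudocounts, scalings and filters, and left-out samples were alternatives. The fits were tested on simulated data. The members and gene lists were chosen with earlier results of these data known. Named genes are the members, genes of their families, the 5 most like each member, up to 4 genes a list with the highest control mean, and marker genes for stem cells and BMP response. Podn, Calm3, Pecam1, Hbb-bs, Alas2, Tnnt2 and Myl2 come from those lists, of which Calm3 and the erythroid genes were also picked for their role. Arg1, Ass1, Asl, Agmat and Nags come from the urea list and were added for their direction with BMP2. Whether replicate numbers pair samples was checked as the correlation of same-numbered samples' deviations from their group means. For BMP3 and control these were 0.332 to 0.566 over 3 pairs. Over 3 pairs each they were 0.205 to 0.24 for BMP4, 0.154 to 0.311 for BMP5 and 0.271 to 0.304 for BMP7. Over 4 pairs they were 0.0182 to 0.421 for BMP2. For Tgfb they were 0.00405 to 0.0696. Differently numbered samples were not compared, so these values do not settle whether the numbers pair the samples. The labels mention more than 1 sequencing run without assigning samples, so run and group cannot be told apart.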

Additional observations from a re-analysis of the deposited data

Results flagged for a closer look

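In the BMP2 group of 4, the Prelp sample at 2.27 normalized counts stood apart from 3 samples at 0. The Slc14a1 sample at 3.41 did so too. Both are BMP2 replicate II, and they hold 2 and 3 reads. Chance marks about 1 in 20 groups in general, but that rate does not hold here, since with 3 samples at 0 any sample with a read stands apart. Without this library both genes were at 0 with BMP2. The cause was not tested.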

How the results depend on the processing

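With Tgfb, all 3 genes stayed lower past the threshold in every alternative run, with adjusted p by limma from 0.000143 to 0.00239 for Prelp, 5.13e-06 to 0.000303 for Slc14a1 and 3.31e-05 to 0.00128 for Mylk3. Slc14a1 and Mylk3 have no value at a filter of 10 TPM, where they are below the filter. With BMP2, BMP4, BMP5 and BMP7 no log2 difference changed sign. Where a group has almost no reads, its size follows the pseudocount. At 0.1 it was -12.21 for Prelp with BMP2, -9.21 for Slc14a1 with BMP2, -7.44 for Mylk3 with BMP2 and -10.5 for Slc14a1 with BMP4, and at 5 it was -7.58, -4.71, -4.99 and -4.90. edgeR on recovered reads gave -10.55 for Prelp with BMP2 and -10.28 for Slc14a1 with BMP4, and DESeq2 gave -10.76 and -9.43. Rescaling to the same total gave -3.43 for Mylk3 with BMP4.

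With BMP3, signs near 0 were not stable. Over left-out samples the log2 difference ran from -0.26 to 0.0033 for Prelp (the latter without BMP3 replicate II) and from -0.12 to 0.037 for Mylk3, where it was 0.033 without BMP3 replicate II, 0.019 without BMP3 replicate III, 0.037 without control replicate III and 0.019 without control replicate IV. The adjusted p was 1 throughout. The count of genes called with BMP3 was 0 by limma, 6 in a fit on the 2 groups alone, 1 by DESeq2, and 0 to 1 over left-out samples, with 1 gene without BMP3 replicate II.

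Tests of the replicate block on other genes were chosen after seeing the data. With the block, lower calls went from 1455 to 2593 with BMP5 and from 1940 to 3148 with BMP7, and Cps1 did not pass with either. With the replicate block, BMP3 called 0 genes, and the log2 difference with BMP3 was -0.14 for Prelp, 0.14 for Slc14a1 and -0.041 for Mylk3. With Tgfb the replicate block moved the count of calls from 7348 to 7613 and the adjusted p to 0.000842 for Prelp, 0.000303 for Slc14a1 and 0.00128 for Mylk3, and it changed no call. The Tgfb numbers are shared without evidence of pairing. Depth limits the values at 0 to 10 reads, and no depth is known for the TPM tables.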
